A study of Ophthalmotilapia nasuta and Ophthalmotilapia ventralis with 60 samples.

Results

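The cerebellum was compared with the brain stem inside the same fish, in 10 pairs of libraries from 10 females. The members were all libraries titled as cerebellum (10) or brain stem (10), 20 of the 60 libraries of the series, and each cerebellum was set against the brain stem of its own fish. Of the pairs, 5 came from Ophthalmotilapia nasuta and 5 from Ophthalmotilapia ventralis, closely related mouthbrooding cichlids of Lake Tanganyika. The females were wild-caught, mature and untreated. Each species came from a site of its own and lived in an aquarium of its own. All O. nasuta were dissected before the O. ventralis, so species cannot be told apart from origin, aquarium or order of dissection. Both groups were whole dissected brain parts rather than sorted cells. The other parts sampled from the same fish were the diencephalon, the olfactory bulbs, the optic tectum and the telencephalon, and they entered the model and the comparison of levels across the 6 parts. Replicates were separate fish.

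The cerebellum is a layered part of the hindbrain roof in which very many small granule cells send parallel fibres to Purkinje cells, the inhibitory output neurons of its cortex. It is known for the timing and coordination of movement and, in electric and other fishes, for predicting the sensory results of the animal's own actions. The brain stem carries the nuclei of the cranial nerves, the reticular formation, monoamine cell groups and the large myelinated tracts between brain and spinal cord, and its neurons use acetylcholine, glycine, GABA, glutamate, monoamines and many peptides. Hox genes, which give position along the body axis, are active in the hindbrain behind the cerebellum.

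Levels are given in CPM, the reads of a gene scaled to a fixed number of assigned reads per library and corrected with TMM factors. Reads came from the 3' ends of transcripts. The cerebellum libraries held 225512 to 1531632 assigned reads and the brain stem libraries 325455 to 673995, so that 3 reads correspond to 2.09 to 13.5 CPM in a cerebellum library and 4.53 to 9.16 CPM in a brain stem library. Of 36499 genes in the tables, 11680 passed the filter on low counts, and 5267 of those have a locus name only. The filter kept 397 of them only with the brain stem libraries counted and 249 only with the cerebellum libraries counted. For such genes the choice favoured a higher level in that part. Between 10564 and 11486 of the genes tested had a read in a cerebellum library, against 11433 to 11599 in a brain stem library. The summed share of the genes encoded in mitochondria was 0.957 to 1.49% in cerebellum and 1.97 to 3.17% in brain stem, lower in the cerebellum of 10 of 10 fish. Among the cerebella, that of O. ventralis fish 1 stood apart in depth, with 1531632 reads. The cerebellum was dissected before the other parts, so order of handling and brain part cannot be told apart.

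Over both species, 6285 of 11680 genes (53.8%) differed between cerebellum and brain stem at an adjusted p under 0.05 in edgeR's quasi-likelihood test with Benjamini-Hochberg adjustment. Of these, 2812 (24.1% of all tested) were higher in the cerebellum and 3473 (29.7%) were lower. Both shares are the background for the counts of the gene lists below. Without O. ventralis fish 1 the count was 5924. Without O. nasuta fish 1, whose brain stem was the lowest for the peptide genes oxt and rln3 described below, it was 6032. The directions differed in size. The median log2 fold change was 0.74 among the genes called higher and -1.52 among those called lower, and the median over all genes tested was -0.008. An estimate above 2 was found for 78 genes and one below -2 for 1179 genes. With the test set against a log2 fold change of 2, 15 genes (0.128%) were higher in the cerebellum beyond it and 465 (3.98%) were lower beyond it. The plot of fold change against level shows this one-sided spread.

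**Figure D1:**
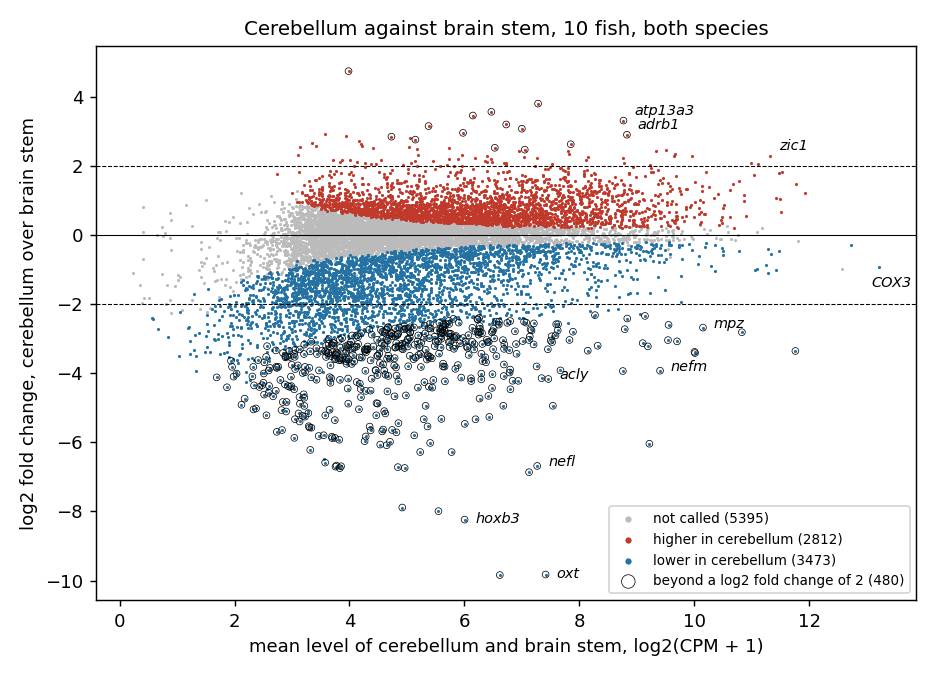
Log2 fold change of cerebellum over brain stem (vertical axis) against the mean level of both parts as log2(CPM + 1) (horizontal axis), 1 point a gene, 11680 genes. Red points are the 2812 genes called higher in the cerebellum, blue points the 3473 called lower, grey points those not called; rings mark the 480 genes beyond a log2 fold change of 2, of which 465 lie below -2 (dashed lines at -2 and 2).

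The same asymmetry stood in the single libraries. For 1879 genes (16.1%) the 10 cerebellum and the 10 brain stem libraries did not overlap, 690 with the cerebellum above and 1189 with it below. The within-fish difference in log2(CPM + 1) lay above 1 in all 10 fish for 146 genes and below -1 in all 10 fish for 742 genes. No read of 33 tested genes was found in any cerebellum library, while every tested gene had a read in some brain stem library. The genes called higher nevertheless made up 50.7 to 53.4% of all assigned reads in cerebellum libraries and 27.2 to 33.9% in brain stem libraries. The genes called lower made up 16.0 to 17.8% of cerebellum reads and 33.5 to 39.3% of brain stem reads. The genes called higher had a median level of 89.4 CPM in the cerebellum and 53.6 CPM in the brain stem, and the genes called lower had 11.2 and 35.7 CPM. A share of a library, like CPM, is relative, and in bulk tissue fewer cells of a type and less RNA of a gene per cell cannot be told apart.

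Of the 15 genes higher beyond a log2 fold change of 2, 11 have a locus name only, with log2 fold changes of 2.64 to 4.75. The 4 with a symbol were adrb1, atp13a3, gdf10 and eps8l2. The gene adrb1 encodes the beta-1 adrenergic receptor, through which noradrenaline acts. Its level was 568 CPM in the lowest, 778 in the median and 1116 in the highest cerebellum library, against 48.9, 107 and 179 CPM in brain stem, and 3 values of a gene stand for these in the same order from here on. All cerebellum libraries therefore lay above all brain stem libraries. The log2 fold change was 2.91 ± 0.21 (SE implied by the fit of 59 libraries, 10 fish compared, edgeR adjusted p = 1.85e-15). In the remaining parts adrb1 averaged 14.97 CPM in diencephalon to 51.3 CPM in optic tectum.

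The gene atp13a3, a P-type ATPase linked to polyamine transport, had 105, 866 and 1231 CPM in cerebellum and 37.8, 70.4 and 116 CPM in brain stem. The groups overlapped through 1 library only, the cerebellum of O. ventralis fish 1 with 105 CPM, while the other 9 cerebellum libraries lay at 473 CPM or more. Its log2 fold change was 3.32 ± 0.20. The gene eps8l2, an Eps8-like protein that binds actin, had 163, 233 and 255 CPM in cerebellum, against 15.3, 40.3 and 72.3 CPM in brain stem, without overlap (2.48 ± 0.16 on the log2 scale).

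The gene gdf10 encodes a secreted factor of the TGF-beta family that is made by Bergmann glia in the mouse cerebellum. It had 311, 158, 218, 168 and 296 CPM in the 5 cerebella of O. nasuta, against 50.1, 46.0, 29.99, 30.3 and 30.6 CPM in their brain stems. In O. ventralis it had 85.2, 74.5, 85.2, 80.1 and 88.2 CPM in cerebellum, against 12.6, 13.6, 25.2, 7.04 and 17.4 CPM in brain stem. The level differed between the species in both parts, with every cerebellum of O. nasuta above every cerebellum of O. ventralis, and the fold changes were 2.60 in O. nasuta and 2.47 in O. ventralis on the log2 scale. The test of the species difference in that fold change gave an edgeR adjusted p of 1, and the levels themselves were not tested between species.

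Most granule cell genes were higher in the cerebellum. Of 21 tested members of the list (26 genes), 17 were called higher and 4 lower, a share of 81.0% higher against 24.1% over all genes tested, with a median log2 fold change of 1.24 against -0.008. Their summed level was 13348 to 16544 CPM in cerebellum and 3119 to 6312 CPM in brain stem. The zinc finger gene zic1, which is needed for granule cell development, had 3472, 4253 and 4974 CPM in cerebellum, against 452, 826 and 1391 CPM in brain stem. Its log2 fold change was 2.31 ± 0.31 (edgeR adjusted p = 3.22e-08), and its libraries did not overlap. The related genes zic2 and zic5 were also higher, by 1.74 and 2.23 on the log2 scale.

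The transcription factor genes of granule cell differentiation were also higher. The gene neurod1, a bHLH factor of differentiating granule cells, had 894, 1324 and 2649 CPM in cerebellum, against 134, 501 and 878 CPM in brain stem, and neurod2 had 300, 368 and 487 CPM against 39.7, 64.0 and 150 CPM. Their log2 fold changes were 1.54 ± 0.21 and 2.36 ± 0.22. The gene pax6, a homeobox factor of granule cell precursors, had 153, 152, 151, 174 and 162 CPM in cerebella of O. nasuta, against 29.4, 46.0, 33.3, 20.2 and 18.3 CPM in their brain stems. In O. ventralis it had 287, 266, 279, 258 and 261 CPM in cerebellum, against 71.4, 63.5, 64.0, 37.0 and 86.8 CPM in brain stem. As for gdf10, the cerebella of the species did not overlap in level, and the fold changes were 2.44 in O. nasuta and 2.10 in O. ventralis (edgeR adjusted p of their difference = 1).

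Receptor and adhesion genes of granule cells joined them. The gene grin2c encodes the NMDA receptor subunit that mature granule cells use in rodents, and had 122, 153 and 201 CPM in cerebellum, against 31.7, 46.6 and 57.4 CPM in brain stem (1.83 ± 0.14). The gene gabrd encodes the delta subunit of extrasynaptic GABA-A receptors, which gives granule cells their tonic inhibition. The level of gabrd was 338, 509 and 584 CPM in cerebellum, against 166, 235 and 272 CPM in brain stem (1.16 ± 0.18), and it averaged 305 CPM in diencephalon and 327 CPM in telencephalon. The atypical cadherin fat2, found on parallel fibres, changed by 1.57 ± 0.20, and chn2, a Rac-regulating protein, by 1.66 ± 0.15.

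The 4 list members called lower were cbln1, calb2, en2 and barhl2. Cerebellin 1 (cbln1), which granule cells of mice secrete at their synapses on Purkinje cells, had 0, 0.723 and 2.79 CPM in cerebellum, against 17.9, 39.2 and 64.1 CPM in brain stem, a log2 fold change of -4.50 ± 0.39. Calretinin (calb2), a calcium buffer of mouse granule cells, had 0, 2.18 and 4.51 CPM, against 21.0, 37.6 and 61.1 CPM in brain stem. Neither passed 4.51 CPM in any of the 10 cerebella. Copies with a locus name only, if any, were not covered. The homeobox genes en2 and barhl2 were low in both parts, at no more than 11.3 and 2.22 CPM in any cerebellum and 31.8 and 9.16 CPM in any brain stem.

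In the brain stem the granule cell genes varied from fish to fish. Of the 17 called higher in the cerebellum, the brain stem of O. nasuta fish 1 ranked among the lowest 3 of 10 for 15 genes and that of O. nasuta fish 5 for 11 genes, while the brain stem of O. ventralis fish 5 ranked among the highest 3 for 12 genes. Their list summed to 3436 and 3119 CPM in those 2 O. nasuta brain stems and to 6312 CPM in that of O. ventralis fish 5. Among all 2812 genes called higher, 2232 were highest in the cerebellum among the 6 parts, and the brain stem came second for 620. Those ranks used means of log2(CPM + 1), and the ranks of the granule cell genes used mean CPM. Among the 17 granule cell genes called higher, 16 were highest in the cerebellum, and the brain stem came second for 9 of them. For example, zic1 averaged 4217 CPM in cerebellum and 870 CPM in brain stem, against 26.3 CPM in diencephalon and 28.4 CPM in telencephalon. The gene fat2 averaged 544 CPM in cerebellum and 188 CPM in brain stem, against 3.33 CPM in diencephalon and 1.04 CPM in telencephalon. Whether granule cells or cerebellar tissue in the brain stem dissections had a part in these levels was not tested.

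Purkinje cell genes did not move together. Of 14 tested (24 listed), 4 were called higher (28.6%, against 24.1% over all genes tested), 7 lower (50%, against 29.7%) and 3 were not called. The median log2 fold change was -0.38. Carbonic anhydrase 8 (ca8), a partner of the IP3 receptor that marks Purkinje cells in mammals and zebrafish, had 200, 235 and 324 CPM in cerebellum, against 24.4, 56.0 and 87.3 CPM in brain stem (2.24 ± 0.16). Phospholipase C beta 4 (plcb4) had 825, 918 and 1076 CPM, against 177, 260 and 434 CPM (1.85 ± 0.11). Both were higher in 10 of 10 fish and without overlap. The summed level of the list was 2839 to 3483 CPM in cerebellum and 1564 to 2209 CPM in brain stem, also without overlap.

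The list members that were lower included lhx5, a LIM homeobox gene of young Purkinje cells and many hindbrain interneurons, with 0, 0.349 and 4.51 CPM in cerebellum, against 32.8, 57.3 and 82.5 CPM in brain stem. The T-type calcium channel gene cacna1g had 20.4, 37.8 and 68.2 CPM, against 109, 155 and 196 CPM, and pcp4, a calmodulin-binding peptide named for Purkinje cells, had 13.2, 33.5 and 49.6 CPM, against 95.2, 129 and 151 CPM. Both were higher in the 4 other parts than in the cerebellum, for instance at 182 and 252 CPM in diencephalon. The forkhead gene foxp2 had 0, 0 and 9.02 CPM in cerebellum, against 3.05, 12.6 and 27.6 CPM in brain stem.

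**Figure D2:**
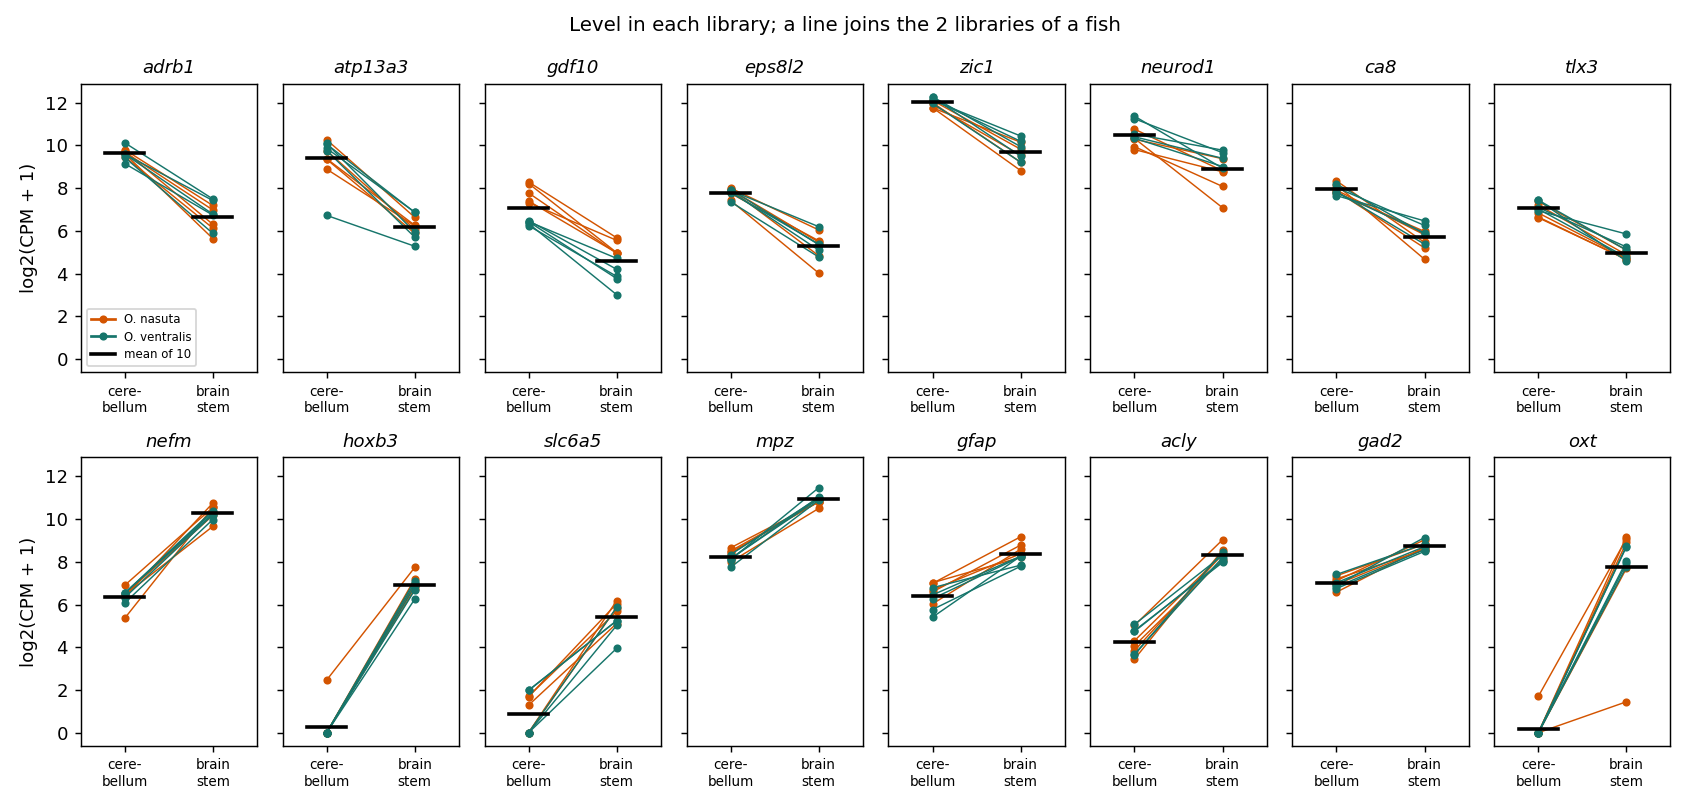
Level of 16 genes as log2(CPM + 1) (vertical axis) in the cerebellum (left) and brain stem (right) of each fish, joined by a line; orange is O. nasuta, green O. ventralis, 5 fish each, and the black bar is the mean of 10 libraries on that scale. All fish slope the same way for each gene, with 1 cerebellum low for atp13a3 (105 CPM, O. ventralis fish 1) and 1 brain stem low for oxt (1.73 CPM, O. nasuta fish 1).

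Of 16 tested hox and hindbrain position genes (47 listed), 10 passed the filter only with the brain stem libraries counted, hoxb3, hoxd3 and hoxc4 among them. That choice favoured genes lower in the cerebellum, so their levels are a description. Of the other 6, 4 were called lower and 2 higher, against 29.7% lower and 24.1% higher over all genes tested. The gene hoxb3, which is expressed in the hindbrain behind the cerebellum, had 622 reads in the 10 brain stems, at 75.2, 119 and 212 CPM, and 1 read in the 10 cerebella, a ratio of brain stem over cerebellum of 676 with a 95% counting interval (exact) of 121 to 26752. The gene hoxd3 had no cerebellum read and 124 brain stem reads, so it was at least 44.9-fold lower in the cerebellum at a floor of 3 reads over the group. The gene hoxc4 had 0, 0.956 and 6.60 CPM in cerebellum, against 75.2, 92.9 and 193 CPM in brain stem. In each of the 4 other parts hoxb3, hoxd3 and hoxc4 averaged 1.31 CPM or less. The filter favoured low levels outside the brain stem for these genes, so this too is a description. Intervals and floors cover counting error only.

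The 2 position genes that were higher were tlx3 and mafb. The gene tlx3, a homeobox factor of excitatory sensory neurons, had 96.9, 132 and 172 CPM in cerebellum, against 22.9, 27.2 and 56.7 CPM in brain stem (2.12 ± 0.24). Its relative tlx2 had 3 reads in all cerebella together and 21.0, 36.5 and 50.1 CPM in brain stem, and passed the filter only with the brain stem libraries counted. The gene mafb, a bZIP factor of hindbrain segments, had 588, 651 and 857 CPM in cerebellum, against 104, 275 and 344 CPM in brain stem (1.45 ± 0.25), and alone made up most of the summed level of this list in the cerebellum.

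Of 8 tested motor neuron and cholinergic genes (19 listed), 4 passed the filter only with the brain stem libraries counted, nefl, prph and phox2a among them. That choice favoured lower levels in the cerebellum, so their levels are a description. The other 4, nefm, nefh, calcb and ache, were called lower too, against 29.7% lower over all genes tested. The listed genes chat, slc18a3, slc5a7, isl1, isl2 and mnx1 were not among those tested, so these counts do not cover them. Neurofilament light (nefl), the small subunit of the filaments that fill thick axons, had 0, 2.95 and 6.66 CPM in cerebellum, against 182, 292 and 508 CPM in brain stem. The medium subunit nefm had 40.0, 87.0 and 119 CPM, against 808, 1247 and 1720 CPM (-3.92 ± 0.12), and the heavy subunit nefh 40.0, 63.6 and 88.2 CPM, against 424, 571 and 756 CPM (-3.20 ± 0.12). All 3 neurofilament subunits were lower in 10 of 10 fish, without overlap. Peripherin (prph), the neurofilament of motor and sensory neurons, had no more than 3.30 CPM in any cerebellum and at least 15.3 CPM in every brain stem.

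The gene phox2a, a homeobox factor of branchial motor neurons and noradrenergic neurons, had 0, 0 and 1.84 CPM in cerebellum, against 3.33, 14.1 and 21.2 CPM in brain stem, with 2 reads in the cerebella and 62 in the brain stems. The gene calcb, a form of the peptide CGRP that motor neurons make, had 2 reads in the 10 cerebella and 296 in the 10 brain stems. Acetylcholinesterase (ache), which many neurons besides cholinergic ones make, was lower by a smaller step, with 77.1, 95.3 and 104 CPM in cerebellum, against 145, 159 and 207 CPM in brain stem (-0.84 ± 0.12). The receptor tyrosine kinase ret, through which GDNF acts on motor and other neurons, had 0, 0.349 and 2.97 CPM, against 60.7, 76.0 and 117 CPM.

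Other genes of axon structure went both ways. Ankyrin G (ank3) and beta-IV spectrin (sptbn4), which build the axon initial segment, were higher in the cerebellum. The gene ank3 had 1011, 1241 and 1487 CPM, against 402, 441 and 784 CPM in brain stem (1.37 ± 0.11), and sptbn4 had 382, 511 and 631 CPM, against 135, 190 and 262 CPM (1.36 ± 0.12). The microtubule protein gene map1b was lower by 1.69 on the log2 scale. The neurofilament and axon structure list also holds the neurofilament genes given above, so their calls are counted again here. Of its 14 tested genes, 4 were called higher (28.6%, against 24.1% over all genes tested) and 8 lower (57.1%, against 29.7%). Of the 12 that passed the filter without the brain stem libraries, 4 were higher and 6 lower.

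Genes of glycine transmission were mostly lower: 5 of 8 tested (62.5%, against 29.7% over all genes tested, 12 listed), with 1 higher. Of the 7 that passed the filter without the brain stem libraries, 4 were lower, with a median of -1.30. The neuronal glycine transporter slc6a5, which defines glycinergic neurons, passed the filter only with the brain stem libraries counted. It had 0, 0.723 and 2.97 CPM in cerebellum, against 14.5, 43.7 and 71.6 CPM in brain stem. In each of the 4 other parts it averaged 1.40 CPM or less. The glial transporter slc6a9 had 42.9, 67.8 and 90.2 CPM, against 223, 293 and 367 CPM. Receptor subunits split. The alpha subunit glra1 was lower (162, 203 and 253 CPM, against 324, 499 and 703 CPM) and glra2 lower still (-4.19 ± 0.23), but the beta subunit glrb was higher, with 79.4, 139 and 165 CPM in cerebellum, against 54.6, 84.3 and 107 CPM in brain stem (0.72 ± 0.12).

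All 6 tested genes of GABA synthesis and transport were lower (100%, against 29.7% over all genes tested), with a median of -1.65. Glutamate decarboxylase 2 (gad2), which makes GABA at nerve endings, had 94.7, 126 and 169 CPM in cerebellum, against 359, 416 and 564 CPM in brain stem (-1.74 ± 0.13). The vesicular transporter slc32a1, shared by GABA and glycine neurons, had 131, 138 and 191 CPM, against 336, 413 and 538 CPM. The uptake transporter slc6a11 was lower by 2.17 on the log2 scale. Of glutamate transporters, 3 were tested under a symbol and all were lower. The vesicular transporter slc17a6, which loads glutamate in brain stem and diencephalic neurons, had 7.35, 28.0 and 82.2 CPM in cerebellum, against 102, 206 and 507 CPM in brain stem, and it was higher still in telencephalon, at 989 CPM.

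Most monoamine and peptide genes were lower in the cerebellum. Of 8 tested monoamine neuron genes, 7 were lower (87.5%, against 29.7% over all genes tested). Of these 7, 2 (ddc and slc6a2) passed the filter only with the brain stem libraries counted, which favoured lower levels in the cerebellum. Dopa decarboxylase (ddc), which makes dopamine and serotonin, had no cerebellum read and 9.70, 14.7 and 18.9 CPM in brain stem. Tyrosine hydroxylase (th), the first enzyme towards dopamine and noradrenaline, was low in both, with 1 read in all cerebella and 0, 5.45 and 10.1 CPM in brain stem. The factor gata3, which specifies serotonin neurons and some GABA neurons, had 0, 0 and 2.94 CPM, against 26.0, 43.7 and 61.1 CPM, and was highest in the optic tectum, at 210 CPM.

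Of 18 tested neuropeptide genes (42 listed), 13 were lower (72.2%, against 29.7% over all genes tested) and 1 higher (5.56%, against 24.1%). Of the lower ones, 2 (vip and rln3) passed the filter only with the brain stem libraries counted. Oxytocin (oxt), known in fish from preoptic neurons that reach the pituitary and the hindbrain, had 1 read in the 10 cerebella and 1570 reads in the 10 brain stems. In the brain stem it had 1.73, 580, 207, 542 and 486 CPM in the 5 O. nasuta and 218, 429, 262, 417 and 243 CPM in the 5 O. ventralis. The brain stem of O. nasuta fish 1 thus held almost none, and it was also the lowest of 10 for relaxin-3 (rln3), a peptide of a pontine cell group in rodents, with 1.73 CPM against 10.6 CPM or more elsewhere. Over the species means, oxt averaged 339 CPM in the brain stem, 90.2 CPM in the olfactory bulbs and 20.9 CPM in the diencephalon.

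The peptide genes trh, adcyap1, vip and cck were lower in the cerebellum in 10 of 10 fish. Thyrotropin-releasing hormone (trh) had 0, 6.17 and 8.82 CPM in cerebellum, against 63.9, 106 and 169 CPM in brain stem, and PACAP (adcyap1) had 0, 10.4 and 20.9 CPM, against 94.6, 105 and 128 CPM. Vasoactive intestinal peptide (vip), which passed the filter only with the brain stem libraries counted, had no cerebellum read, at least a 21.4-fold difference. Cholecystokinin (cck) had 0, 0 and 5.88 CPM in cerebellum and 22.4, 46.3 and 75.7 CPM in brain stem, and its highest level was in the telencephalon, at 899 CPM. Proenkephalin (penk) was the only one called higher, with 92.4, 129 and 198 CPM, against 51.8, 82.9 and 146 CPM (0.63 ± 0.25, edgeR adjusted p = 0.0329), in 9 of 10 fish. That call was lost in 4 of the fits that left out 1 fish: the adjusted p was 0.0575, 0.054 and 0.0602 without O. nasuta fish 1, 3 or 5 and 0.105 without O. ventralis fish 1.

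**Figure D3:**
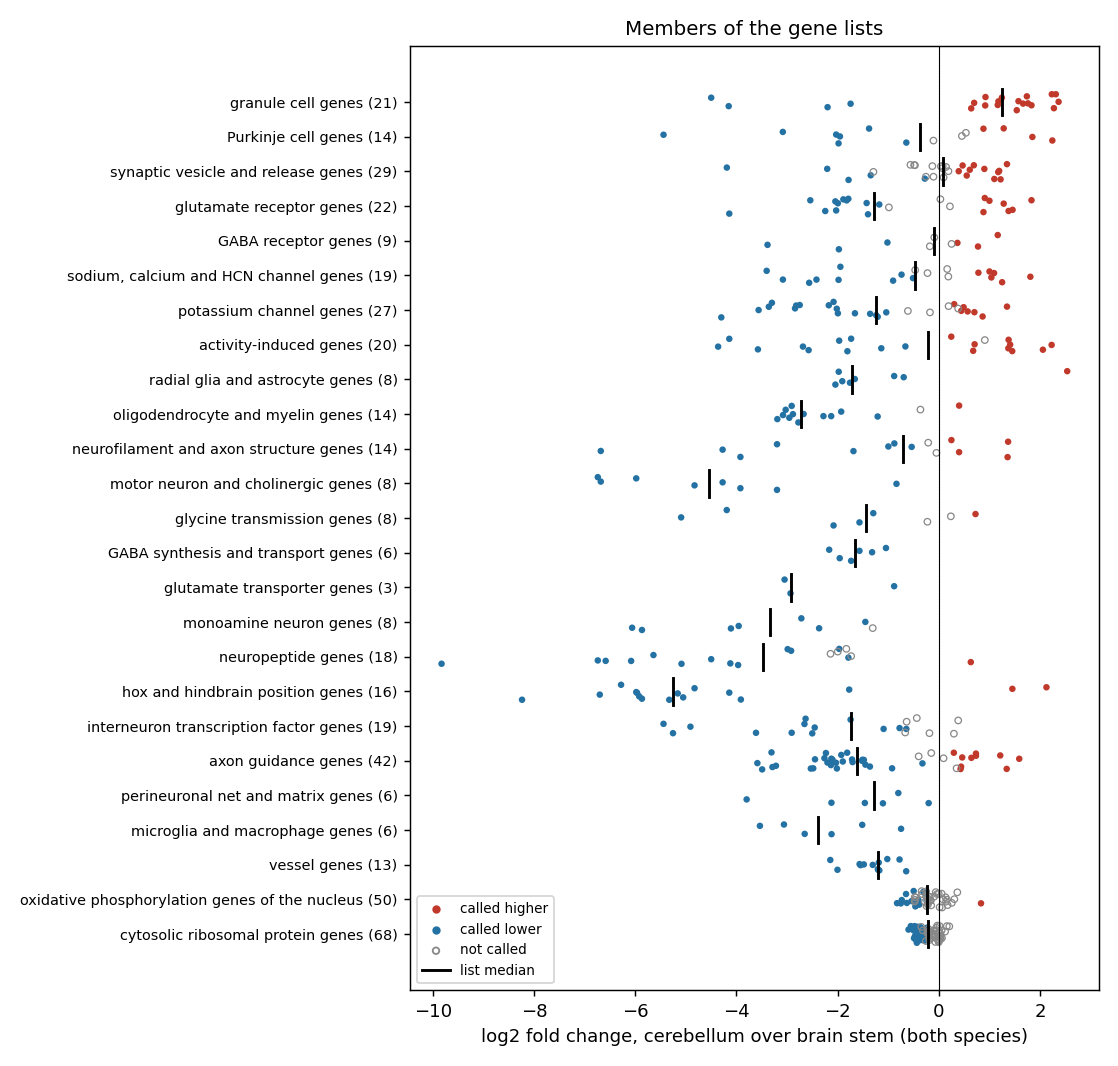
Log2 fold change of cerebellum over brain stem (horizontal axis) of each tested member of 25 gene lists, with the number tested in brackets; red is called higher, blue called lower, open circles not called, and the black bar is the list's median. The granule cell list has its median at 1.24, and the myelin list at -2.73. The bars take in members that passed the filter only with the brain stem libraries counted, among them 10 of 16 in the hox list, 4 of 8 in the motor neuron list and 3 of 14 in the myelin list. The thin line marks 0, and the median of all genes tested was -0.008.

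Of 14 tested oligodendrocyte and myelin genes (30 listed), 12 were lower in the cerebellum (85.7%, against 29.7% over all genes tested) and 1 higher. The list median was -2.73. The median was -2.28 over the 11 that passed the filter without the brain stem libraries, of which 9 were lower. Their summed level was 667 to 926 CPM in cerebellum and 2418 to 4048 CPM in brain stem, without overlap. Myelin protein zero (mpz), a major protein of central myelin in fishes, had 213, 303 and 403 CPM in cerebellum, against 1449, 1935 and 2834 CPM in brain stem (-2.67 ± 0.12, edgeR adjusted p = 2.47e-30). The enzymes of myelin lipids changed by more, with ugt8, which makes galactolipids, at 0, 10.3 and 18.1 CPM, against 86.9, 99.6 and 131 CPM, and fa2h, which hydroxylates their fatty acids, at 0, 8.79 and 13.2 CPM, against 40.8, 76.3 and 137 CPM. The gene bcas1 of myelinating oligodendrocytes had 9.02, 16.7 and 26.4 CPM, against 94.6, 140 and 190 CPM.

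The factors that drive oligodendrocytes were lower too. The gene sox10 had 0, 9.74 and 20.8 CPM in cerebellum, against 24.4, 41.5 and 58.8 CPM in brain stem, and myrf had 5.52, 12.5 and 24.9 CPM, against 45.3, 71.5 and 88.1 CPM. Both of the remaining members are defining markers. The gene listed as mag, myelin-associated glycoprotein, had 338, 401 and 466 CPM, against 225, 301 and 390 CPM (0.40 ± 0.12), and the gene listed as mbp, myelin basic protein, had at most 10.1 CPM in a cerebellum and 17.3 CPM in a brain stem, with no call (-0.37 ± 0.43). Further copies of either under a locus name only, if any, were not covered. Of the 12 genes called lower, 11 were highest in the brain stem among the 6 parts, but only 4 were lowest in the cerebellum.

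Among 8 tested radial glia and astrocyte genes, 7 were lower (87.5%, against 29.7% over all genes tested) and gdf10 was higher. Glial fibrillary acidic protein (gfap), the filament of radial glia and astrocytes, had 41.5, 90.9 and 129 CPM in cerebellum, against 221, 306 and 577 CPM in brain stem (-1.91 ± 0.14). The sodium bicarbonate transporter slc4a4 had 49.6, 66.7 and 92.0 CPM, against 205, 306 and 389 CPM, and the connexin gene gja1, the gap junction protein of these cells, 176, 282 and 418 CPM, against 697, 908 and 1076 CPM. The lipid-binding protein fabp7 and the glutamate transporter slc1a2 were lower by 0.70 and 0.89 on the log2 scale.

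Ion channel and receptor genes differed by subunit. Of 27 tested potassium channel genes, 7 were higher (25.9%) and 16 lower (59.3%), and of 19 sodium, calcium and HCN channel genes, 6 were higher (31.6%) and 9 lower (47.4%), against 24.1% higher and 29.7% lower over all genes tested. Of the 24 potassium channel genes that passed the filter without the brain stem libraries, 7 were higher and 14 lower. Without hcn2, which passed only with the cerebellum libraries counted, 5 of 18 genes of the second list were higher and 9 lower. The pore subunit cacna1a of P/Q-type calcium channels, the main channel of transmitter release at parallel fibre and Purkinje synapses, had 2836, 3788 and 4532 CPM in cerebellum, against 1326, 1690 and 2265 CPM in brain stem (1.09 ± 0.11). The L-type subunit cacna1c changed by 0.999 ± 0.090 on the log2 scale. The pacemaker channels hcn2 and hcn4 went opposite ways. The gene hcn2 had 11.5, 19.4 and 38.5 CPM, against 2.10, 5.48 and 12.3 CPM, and hcn4 had 0, 1.83 and 3.68 CPM, against 7.04, 17.8 and 25.2 CPM.

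Of the potassium channels, the background channel subunit kcnk12 (1.34 ± 0.23) and the large-conductance channel kcnma1 (0.57 ± 0.09) were higher in 10 of 10 fish. The modifier subunit kcns2 had 0, 0.349 and 4.53 CPM in cerebellum, against 17.5, 30.8 and 51.9 CPM in brain stem. The A-current partner kcnip2 and the M-current subunit kcnq3 were lower by 2.82 and 2.18 on the log2 scale.

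Of 22 tested glutamate receptor genes, 7 were higher (31.8%, against 24.1% over all genes tested) and 12 lower (54.5%, against 29.7%). NMDA receptor subunits showed the split most clearly. While grin2c was higher, as given above, grin2a had 11.1, 29.4 and 38.6 CPM in cerebellum, against 101, 152 and 186 CPM in brain stem (-2.54 ± 0.27), and grin2b had 15.5, 39.8 and 76.4 CPM, against 118, 145 and 195 CPM (-1.89 ± 0.17). Of the AMPA receptor subunits, gria2, which blocks calcium entry, was higher (0.997 ± 0.126) and gria4 was lower (-1.997 ± 0.179). The auxiliary subunit cnih2 had 2.26, 6.27 and 17.6 CPM, against 86.8, 133 and 165 CPM (-4.14 ± 0.19). Among GABA receptor genes, gabrd and the metabotropic subunit gabbr2 (0.77 ± 0.09) were higher, and gabrg1 had 0, 0.698 and 5.93 CPM, against 12.8, 22.2 and 30.3 CPM.

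Of 29 tested synaptic vesicle and release genes, 11 were higher (37.9%, against 24.1% over all genes tested) and 5 lower (17.2%, against 29.7%), with a median of 0.07. Piccolo (pclo), a scaffold of the active zone, had 1584, 1817 and 2348 CPM in cerebellum, against 639, 777 and 1064 CPM in brain stem (1.19 ± 0.09). The gene unc13c, a Munc13 isoform known from mouse granule cells, had 430, 460 and 659 CPM, against 147, 211 and 280 CPM (1.22 ± 0.11), and the active zone gene rims4 had 964, 1094 and 1316 CPM, against 331, 403 and 648 CPM (1.34 ± 0.13). The vesicle SNARE gene vamp1 had 149, 181 and 252 CPM, against 458, 623 and 795 CPM (-1.79 ± 0.13). The plasma membrane SNARE gene snap25 was lower by 0.28 on the log2 scale, in 10 of 10 fish, a call that was lost without O. nasuta fish 1 (edgeR adjusted p = 0.0624).

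Activity-induced genes split, with 9 of 20 tested higher (45%, against 24.1% over all genes tested) and 10 lower (50%, against 29.7%). Of the 18 that passed the filter without the brain stem libraries, 9 were higher and 8 lower, with a median of 0.46. The neuronal factor npas4, which is switched on by calcium entry, had 113, 426, 526, 88.3 and 418 CPM in the cerebella of O. nasuta, against 17.3, 171, 93.3, 37.9 and 58.0 CPM in their brain stems. In O. ventralis it had 25.8, 233, 320, 249 and 564 CPM in cerebellum, against 16.8, 55.9, 89.2, 31.7 and 113 CPM in brain stem. The cerebellum was higher in 10 of 10 fish although the groups overlapped, since the 3 fish with the lowest cerebellum were among the 4 lowest in brain stem (2.05 ± 0.25). The phosphatase dusp5 (2.23 ± 0.21), egr1 (1.45 ± 0.21) and fosl2 (1.37 ± 0.30) were higher in 10 of 10 fish as well. The cerebellum of O. ventralis fish 1 was the lowest of 10 for npas4, dusp5 and egr1, as for atp13a3.

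Other genes of the same list went down. The phosphatase dusp1 had 0, 3.75 and 8.88 CPM in cerebellum, against 10.5, 25.1 and 61.3 CPM in brain stem, and ier2 had 0, 0.919 and 3.82 CPM, against 3.45, 10.4 and 23.0 CPM. The growth factor bdnf had 0, 2.93 and 12.9 CPM, against 5.18, 24.5 and 35.3 CPM (-2.58 ± 0.41). The nuclear receptor nr4a2 had 2 reads in all cerebella and 49 in all brain stems, and passed the filter only with the brain stem libraries counted. The cerebellum was removed first from every brain, and the part of handling time in these values was not tested.

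Genes of axon guidance were lower in 28 of 42 tested (66.7%, against 29.7% over all genes tested) and higher in 10 (23.8%, against 24.1%), with a median of -1.61. The neuropilin nrp1, a receptor of semaphorins, had 2.97, 9.84 and 26.4 CPM in cerebellum, against 95.1, 125 and 226 CPM in brain stem. Its relative nrp2 had 9.56, 17.9 and 45.1 CPM, against 112, 195 and 266 CPM. The Slit receptors differed among themselves. The genes robo1 and robo2 were lower (-2.20 ± 0.15 and -2.13 ± 0.16), but robo3, the member that lets hindbrain axons cross the midline, had 135, 184 and 226 CPM, against 42.8, 64.9 and 81.6 CPM (1.59 ± 0.13). The repulsive factor draxin (1.34 ± 0.15) and the ephrin receptor epha4 (1.21 ± 0.15) were also higher.

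All 6 tested genes of the perineuronal net and matrix were lower (100%, against 29.7% over all genes tested). The link protein hapln4 had 0, 5.83 and 11.9 CPM in cerebellum, against 66.5, 91.6 and 124 CPM in brain stem (-3.80 ± 0.25), and tenascin-R (tnr) 57.8, 67.2 and 88.2 CPM, against 133, 184 and 243 CPM. Of 11 tested genes of cholesterol and fatty acid synthesis, 5 were lower (45.5%, against 29.7% over all genes tested). The largest of these changes was in acly, the ATP citrate lyase that makes acetyl-CoA in the cytosol, with 9.90, 17.3 and 32.6 CPM, against 250, 321 and 523 CPM (-4.16 ± 0.19, edgeR adjusted p = 5.25e-30). The other 4 called lower changed by -1.13 to -0.73 on the log2 scale. The replication clamp pcna was the only one of 5 tested proliferation genes to be called, with 7.23, 19.1 and 23.7 CPM in cerebellum, against 0, 8.94 and 15.1 CPM in brain stem, higher in 8 of 10 fish.

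The levels in the 6 parts showed whether the cerebellum or the brain stem stood apart. Of the 2812 genes higher in the cerebellum, 2232 (79.4%) had their highest level there among the 6 parts. Of the 3473 lower, 2547 (73.3%) had their lowest level in the cerebellum, and 1113 (32.0%) their highest in the brain stem. These shares were 28.2%, 29.6% and 13.8% over all genes tested. Of the 465 genes lower beyond a log2 fold change of 2, 48 passed the filter only with the brain stem libraries counted. Of all 465, 388 (83.4%) were lowest in the cerebellum and 141 (30.3%) were highest in the brain stem, 83 of them both. The calls and these levels share the same libraries, so the shares are a description.

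Genes known from other brain parts were part of this. Of 10 tested optic tectum genes all were lower in the cerebellum, and of 17 forebrain genes 12 were lower (70.6%, against 29.7% over all genes tested). In the optic tectum list, pax7, tfap2d, pou4f1, pou4f2, barhl2, tal2 and en2 were highest in the optic tectum. The remaining members were not. The gene gbx1 averaged 40.4 CPM in brain stem and 0 CPM in optic tectum, meis2 was highest in olfactory bulbs and six3 in telencephalon. Without otp, which passed the filter only with the brain stem libraries counted, 11 of 16 forebrain genes were lower. The factor pou4f2 had 1 read in the cerebella and 9.16, 21.3 and 55.3 CPM in brain stem, against 284 CPM on average in the optic tectum. The Wnt effector tcf7l2 had 9.05, 16.0 and 54.1 CPM in cerebellum, against 230, 300 and 363 CPM in brain stem, and averaged 1091 CPM in diencephalon and 713 CPM in optic tectum. The homeobox genes otp and shox2 were lower as well, otp with no read in a cerebellum and 26.9 CPM on average in brain stem, above the 4.77 CPM of the diencephalon. Of 19 tested transcription factor genes of hindbrain and spinal interneurons, 13 were lower (68.4%, against 29.7% over all genes tested) and none was higher. Without the 4 that passed the filter only with the brain stem libraries counted, 10 of 15 were lower, with a median of -1.09. Whether tissue of neighbouring parts in the brain stem dissections had a part in these levels was not tested.

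**Figure D4:**
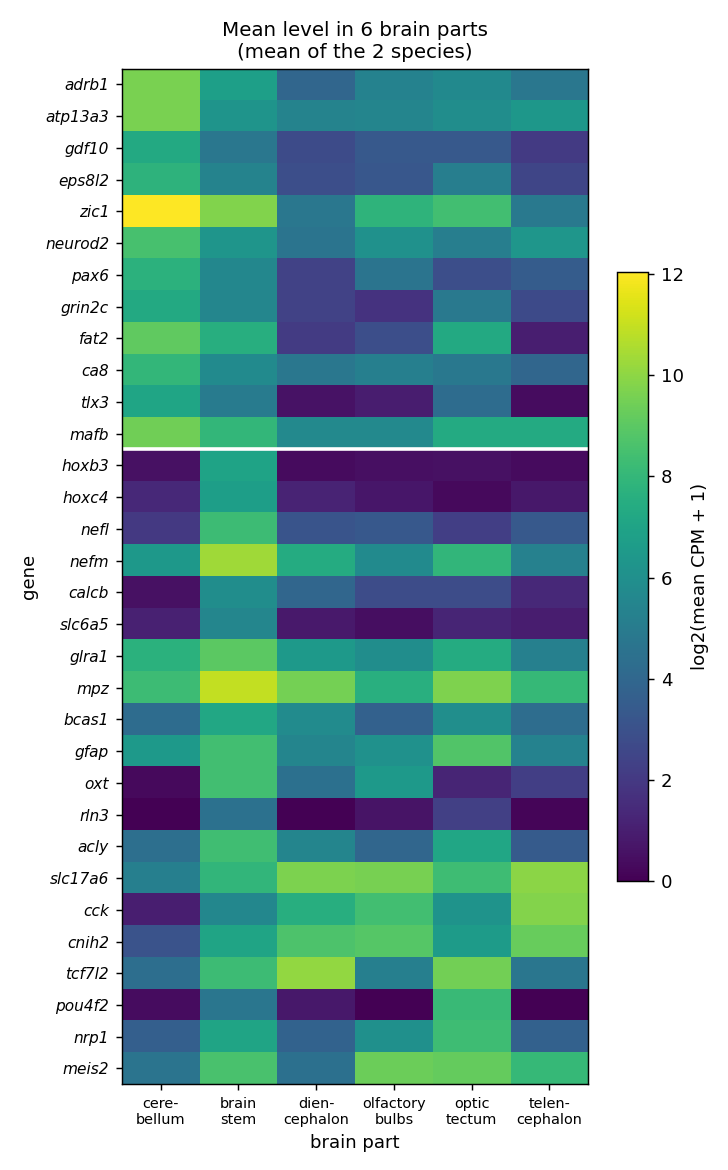
Mean level in 6 brain parts (columns) of selected genes (rows), as log2(mean CPM + 1), the mean of the species means. The genes above the white line were higher in the cerebellum and are brightest in its column, and those below it were lower. Of the lower genes, hoxb3, hoxc4 and slc6a5 are bright in the brain stem alone, and cck, cnih2 and tcf7l2 are brighter in other parts. The genes hoxb3, hoxc4 and slc6a5 passed the filter only with the brain stem libraries counted.

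The study screened genes that earlier work had linked to fish behaviour, and 17 of those it detected in these libraries were tested. Of them, 6 were higher in the cerebellum (35.3%, against 24.1% over all genes tested), 7 lower (41.2%, against 29.7%) and 4 not called. Since detection in these samples chose them, the counts are no independent evidence. Besides adrb1, egr1 and fosl2, the higher ones were avpi1 (17.4, 30.2 and 93.8 CPM, against 5.05, 11.9 and 34.7 CPM), fosb (0.70 ± 0.24, in 6 of 10 fish, not called without O. nasuta fish 3 or O. ventralis fish 5) and the synaptic adhesion gene nlgn3 (0.47 ± 0.10). The monoamine receptors of this group other than adrb1 were lower. The dopamine receptor drd2 had 0, 0 and 4.51 CPM in cerebellum, against 21.1, 32.3 and 45.8 CPM in brain stem, and the serotonin receptor htr2a 0, 0.956 and 5.88 CPM, against 7.76, 20.2 and 36.7 CPM. The serotonin receptor htr1a had 1 read in the cerebella and 42 in the brain stems. The lower genes also held bdnf, vip, oxt and serpini1, a neuronal protease inhibitor (-1.01 ± 0.17). Among these, vip passed the filter only with the brain stem libraries counted. The peptide hormone gene gnrh3 was not called, with 2 reads in cerebellum and 13 in brain stem.

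Most markers of cells other than neurons and macroglia were lower in the cerebellum too. Over all genes tested, 29.7% were lower and 24.1% higher, the background for each count here. All 13 tested vessel genes (23 listed) were lower, with summed levels of 107 to 171 CPM in cerebellum and 256 to 381 CPM in brain stem. The junction genes cdh5 and cldn5 changed by -1.57 ± 0.29 and -1.19 ± 0.27. All 6 tested microglia and macrophage genes were lower, 4 of which passed the filter only with the brain stem libraries counted, with sums of 118 to 306 CPM and 638 to 1105 CPM, which came mostly from cd74, the invariant chain of antigen presentation (86.6, 149 and 262 CPM, against 535, 599 and 951 CPM). The receptor csf1r, which defines these cells, had at most 8.88 CPM in a cerebellum and 25.2 CPM in a brain stem. Of the 4 tested meningeal genes 2 were lower, of 3 blood genes 2, of 3 ependymal genes 1 was lower and 1 higher, and the 4 muscle genes and the 1 pituitary gene were not called. Among the lower blood genes, cd79a passed the filter only with the brain stem libraries counted. Summed levels were 24.9 to 61.7 CPM in cerebellum and 43.4 to 160 CPM in brain stem for the meningeal genes and 5.52 to 31.6 CPM and 23.1 to 56.7 CPM for the blood genes. The part of these cells in the other results was not tested.

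Of 68 tested genes of cytosolic ribosomal proteins 29 were lower (42.6%, against 29.7% over all genes tested) and none was higher, with a median of -0.22. Of 50 nuclear genes of oxidative phosphorylation 15 were lower (30%, near that background) and 1 higher (2%, against 24.1% over all genes tested). Their median was -0.24, against -0.008 over all genes tested. The mitochondrial transcript COX3, a subunit of cytochrome oxidase, had 4381, 6810 and 7684 CPM in cerebellum, against 9207, 11972 and 15676 CPM in brain stem (-0.92 ± 0.08). Mitochondrial COX2 was lower by 0.87 on the log2 scale.

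In O. nasuta 4641 genes (39.7%) were called, 1950 higher and 2691 lower, and in O. ventralis 4901 (42%), 2104 higher and 2797 lower. Of these, 3728 were called in each species, making up 80.3% of those in O. nasuta and 76.1% of those in O. ventralis, and 3724 of them had the same direction. Of the 2086 genes called in 1 species only, 1922 had estimates of the same sign. Across genes, which are not independent replicates, the fold changes of O. nasuta and O. ventralis had a Pearson correlation of 0.887 and a Spearman correlation of 0.845. For 9968 of 11667 genes with an error (85.4%) the fold changes were equivalent within a log2 difference of 2, by 2 one-sided tests at an adjusted p under 0.05.

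Of all genes tested, 3 (0.0257%), all with a locus name, had a fold change that differed between the species in edgeR's interaction test. In that test 533 genes had an unadjusted p under 0.05, no more than chance alone would give at that limit. LOC100709972 had 22.6, 19.8, 33.3, 29.4 and 28.9 CPM in the cerebella of O. nasuta, against 57.0, 33.2, 35.0, 37.9 and 42.8 CPM in their brain stems. In O. ventralis it had no read in any cerebellum and 31.5, 31.7, 27.1, 21.1 and 8.68 CPM in the brain stems, at least a 26.8-fold difference. The species difference was 6.31 ± 0.87 in the fit, a value that depends on the prior count, with an edgeR adjusted p of 5.31e-06.

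LOC102076382 turned round between the species. It had 27.1, 19.8, 24.4, 38.5 and 30.4 CPM in the cerebella of O. nasuta, against 81.2, 58.8, 49.98, 50.5 and 51.9 CPM in their brain stems, and 104, 82.2, 106, 86.0 and 151 CPM in the cerebella of O. ventralis, against 39.9, 78.6, 64.0, 58.1 and 66.5 CPM. All 5 fish of O. nasuta were lower in the cerebellum and all 5 of O. ventralis higher, a species difference of -1.75 ± 0.36. LOC100690564 had 0, 0, 4.44, 0 and 4.34 CPM in the cerebella of O. nasuta and 43.3, 49.7, 5.88, 59.3 and 55.2 CPM in those of O. ventralis, while the brain stems lay at 23.0 to 39.7 CPM and 13.6 to 65.0 CPM (-3.71 ± 0.72). For LOC102076382 and LOC100690564 the edgeR adjusted p was 0.0187. The count of 3 became 1 without O. nasuta fish 1, 2, 3 or 5 or O. ventralis fish 1, 4 or 5, and 6 without O. ventralis fish 3.

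**Figure D5:**
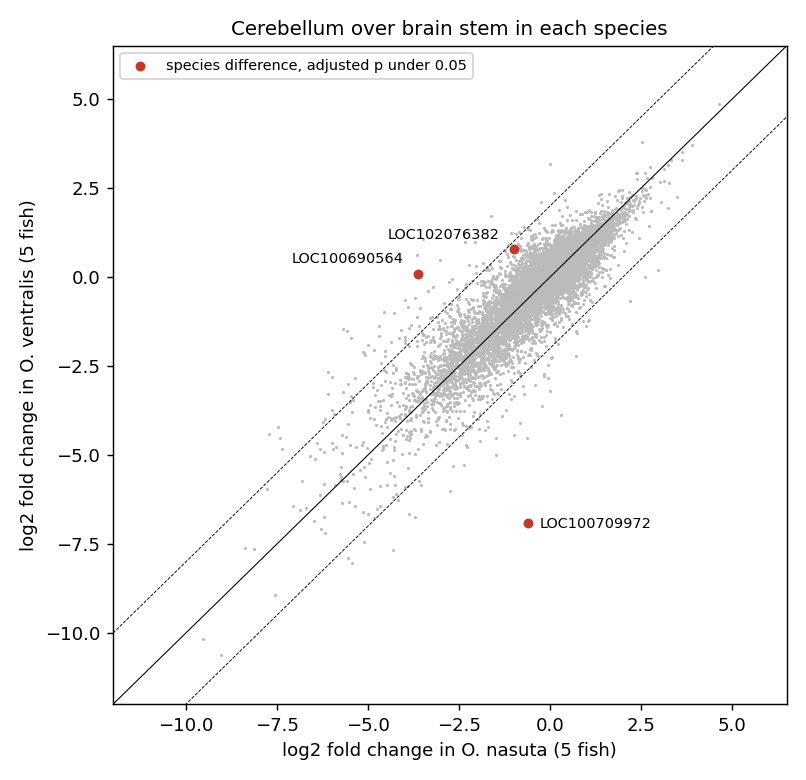
Log2 fold change of cerebellum over brain stem in O. nasuta (horizontal axis) and O. ventralis (vertical axis), 1 grey point a gene, 5 fish each, with the line of equal change and dashed lines 2 log2 units from it. The 3 red points are the genes whose fold change differed between the species (LOC100709972, LOC100690564 and LOC102076382); the other points gather along the line.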

How the data were processed

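Brain RNA of 5 O. nasuta and 5 O. ventralis females was measured by 3' RNA sequencing of 6 parts, in 60 libraries of 1 pooled lane. The authors aligned the trimmed reads to a Nile tilapia genome with STAR 2.5.2b and counted them by gene with strand with HTSeq 0.6.1p1 (versions from the submitters' processing notes), discarding ambiguous reads, and deposited raw counts per gene. RNA was extracted in random batches, and the batch of each library was not used here. Reads from a species other than the reference can be lost at diverged loci.

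From these counts, the filter kept genes that passed 15 CPM in 4 or more libraries, TMM factors were computed, and 59 libraries were fitted (as in the study, without the olfactory bulbs of O. nasuta fish 5) with edgeR 4.0.16 in R 4.3.3, with fish and part within species as terms. Quasi-likelihood tests gave cerebellum minus brain stem over both species, in each species, and the species difference, with Benjamini-Hochberg adjustment at 0.05 over all genes tested, and glmTreat tested against a log2 change of 2. Fold changes used edgeR's prior count of 0.125. The error after ± is the one that the estimate and the F-statistic of this fit imply, not a spread over within-fish differences. Levels are CPM with TMM scaling, and within-fish differences are of log2(CPM + 1). Reads in no gene (14.7 to 17.9% in cerebellum and 15.5 to 19.0% in brain stem libraries) stayed out of totals. No 2 of the 20 libraries were duplicates, the highest correlation being 0.962. The number in a title names the fish, which pairs the libraries by the study's design. The deviations of the 2 libraries of a fish correlated by 0.055 on average (0.020 to 0.107), against -0.014 for other fish of the species, and in 7 of 10 fish the brain stem correlated best with its own cerebellum. In data simulated for the comparison over both species (11522 genes), 70% of changes of log2 1 and 95% of changes of log2 2 were recovered (100 each), and 5 of 11324 unchanged genes were called. Counts were drawn from the fitted model, with as many changes up as down and no difference in the remaining genes. In the data 53.8% of genes were called, so this setting does not show scaling error between parts that differ so widely.

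Lists are described by counts and medians with no test, and some genes stand in more than 1 list. They were matched by symbol, so members or copies with a locus name only are missing from them. Named were the largest changes beyond a log2 change of 2, up to 6 called members with the lowest p and members near 0 of each list, the most abundant genes, the genes of the species difference, those linked to behaviour and all genes of counts up to 5. Other genes named (among them zic2, pax6, neurod1, fat2, npas4, trh, penk, grin2a, grin2b, gria2, hcn2, hcn4, nrp1, draxin and epha4) were chosen after their values were seen. The members and lists were chosen with earlier results of these data known. Alternatives were another scaling, other filters, no term for fish, other sets of libraries, thinning to the lowest total, other edgeR settings, DESeq2 1.42.0, a pseudocount of 5 and leaving out each fish. Some members of the lists are not reported by name here.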

Additional observations from a re-analysis of the deposited data

Results flagged for a closer look

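Each within-fish difference (log2(CPM + 1) of cerebellum minus brain stem) of the genes described was looked at in groups of 5 fish for a fish that stood apart, in 344 groups, library measures included, of which 21 held one. Chance gives about 1 such group in 20.

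O. nasuta fish 1 stood apart for 5 genes, with a smaller difference for hoxb3 (-5.28), rln3 (-1.45), hoxa2 (-2.29), oxt (-1.45) and homer1 (0.343). For hoxb3 and hoxa2 this rested on 1 read each, the only one in the 10 cerebella. It fell in the cerebellum library of this fish, the smallest, with 225512 reads. The brain stem of the same fish held the fewest reads of oxt and rln3, as given above. O. ventralis fish 5 stood apart for 4 genes, with a smaller difference for plcb4 (1.07), bcas1 (-2.39) and ank3 (0.765) and a larger one for slc17a6 (-5.51). Its brain stem had the highest summed level of granule cell genes. O. nasuta fish 3 stood apart for ank3 (0.847), hapln4 (-6.53) and nlgn3 (0.0154), and O. nasuta fish 2 for prph (-1.93) and avpi1 (0.921). O. nasuta fish 5 stood apart for cldn19 (-3.70) and egr2 (-2.06), and O. nasuta fish 4 for myrf (-1.31). O. ventralis fish 4 stood apart for calcb (-6.45) and serpini1 (-1.70), and O. ventralis fish 2 for th, with the only positive difference (1.54) of its species. That difference of th rested on 1 read, the only one in the 10 cerebella. The cerebellum library of O. ventralis fish 1 had 1532000 assigned reads to 4 digits, against 591500 in the next of its group.

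The difference between cerebellum and brain stem itself differed between the species by the interaction test for LOC100709972 (6.31), LOC100690564 (-3.71) and LOC102076382 (-1.75), on the log2 scale.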

How the results depend on the processing

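The direction held for all named genes except LOC102076382, whose fold change over both species, near 0 and not called, was 0.01209 without O. nasuta fish 1 and 0.02045 without O. ventralis fish 2, and ranged from -0.2019 to 0.02045 over all fits with 1 fish left out. Of 166 named genes, 160 kept call and direction in every alternative run that tested them, and 114 of 127 recomputed counts lay within 1.5 times of their value. Not every run tested all 166: thinning covered 153, the 20 libraries alone 156 and filterByExpr 161. Over both species the count of 6285 ranged from 4761 in libraries thinned to the lowest total to 6783 with no filter, and from 5879 to 6126 with 1 fish left out. The count beyond a log2 change of 2 ranged from 409 to 482 with 1 fish left out. The species difference was the least stable: its 3 genes became 10 with no filter, 6 with filterByExpr, 5 in the 20 libraries alone, 6 with DESeq2 and 1 to 6 with 1 fish left out. With no filter, the share of genes equivalent between species was 38.32%, over a larger set of genes of low count. The cause of the other shifts was not tested. Without the replicate block, that is without pairing by fish, 6246 genes were called over both species, 4586 in O. nasuta, 4874 in O. ventralis, 2 for the species difference and 487 beyond a log2 change of 2, with 85.38% equivalent, and of the named genes only fosb lost its call (adjusted p = 0.230). Calls lost in some alternatives were those of fosb (4), kcnc1 (3), penk (6) and snap25 (1), and gnrh3 was called with no filter. With 3 reads worth 2.09 to 13.5 CPM in a cerebellum library, changes of genes near 0 there are known only as bounds or counting intervals.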
